A study of Mus musculus with 8 samples.

Results

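The genes described here carry lipids between brain cells or within them. They are 8 genes chosen by name, namely Apoe, Apod, Clu, Apoc1, Abca1, Abcg1, Fabp5 and Fabp7, out of 19742 genes that could be named on the array. All array features whose accession maps to 1 of these symbols were taken, which gave 9 of 39429 probes. Apod had a pair of probes and each other member had 1. RNA came from the hippocampus of wild type C57BL/6J mice, for which no treatment is described. Young mice were 3 months old (3M, n = 4 samples) and aged mice 29 months old (29M, n = 4 samples), an age close to the end of the life span of this strain. Mice of the oldest age had been bought when already old and were kept for some further months before use.

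Neurons take up much of their cholesterol from astrocytes, because lipoproteins of the blood do not cross into the brain. Astrocytes load cholesterol and phospholipids onto apolipoprotein E through membrane pumps of the ABC family, chiefly ABCA1 and ABCG1. The resulting particles are taken up by neurons through lipoprotein receptors on their surface, and sterol-sensing nuclear receptors (LXR) induce Apoe, Apoc1, Abca1 and Abcg1. Inside cells, fatty acid binding proteins keep fatty acids soluble and pass them to membranes, enzymes and nuclear receptors.

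Each sample was read on 1 one-colour array, where the brightness of a spot reports the abundance of 1 transcript. Between 76.2% and 85.0% of the 43020 non-control spots of an array were well above background, and 0 spots were saturated. The software that read the spots asked for evaluation of 1 array, replicate 1 of 3M. Arrays of both ages were present on each of the 3 slides. All 16 neuron markers examined had probes well above background, with a median log2 change of 0.01 between the ages. Levels are given as normalized log2 intensities, on which a step of 1 is a doubling and which can be compared between arrays for 1 probe but not between probes. A change was called when limma's adjusted p was under 0.1 and the log2 change was at least 0.5 in size. In whole tissue, fewer cells of a type and less RNA per cell cannot be told apart. Precision is limited by having 4 arrays per age.

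Apod was the only member that was called, and it was higher in aged mice on both of its probes. Of the 8 members 1 was thus called higher, where 1.84% of all genes were, and 0 were called lower, where 0.892% of all genes were. In limma's test 3 members had an unadjusted p under 0.05 (Apod, Apoc1 and Abca1, all higher in 29M), where 17.1% of all genes did. For these same 3 members every 29M array lay above every 3M array, which held for 6.34% of all genes. No member had all 29M arrays below the 3M arrays, which held for 5.21% of all genes. The median log2 change was 0.07 over the 8 members and 0.01 over all genes. All 8 members were well above background on every array.

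**Figure D1:**
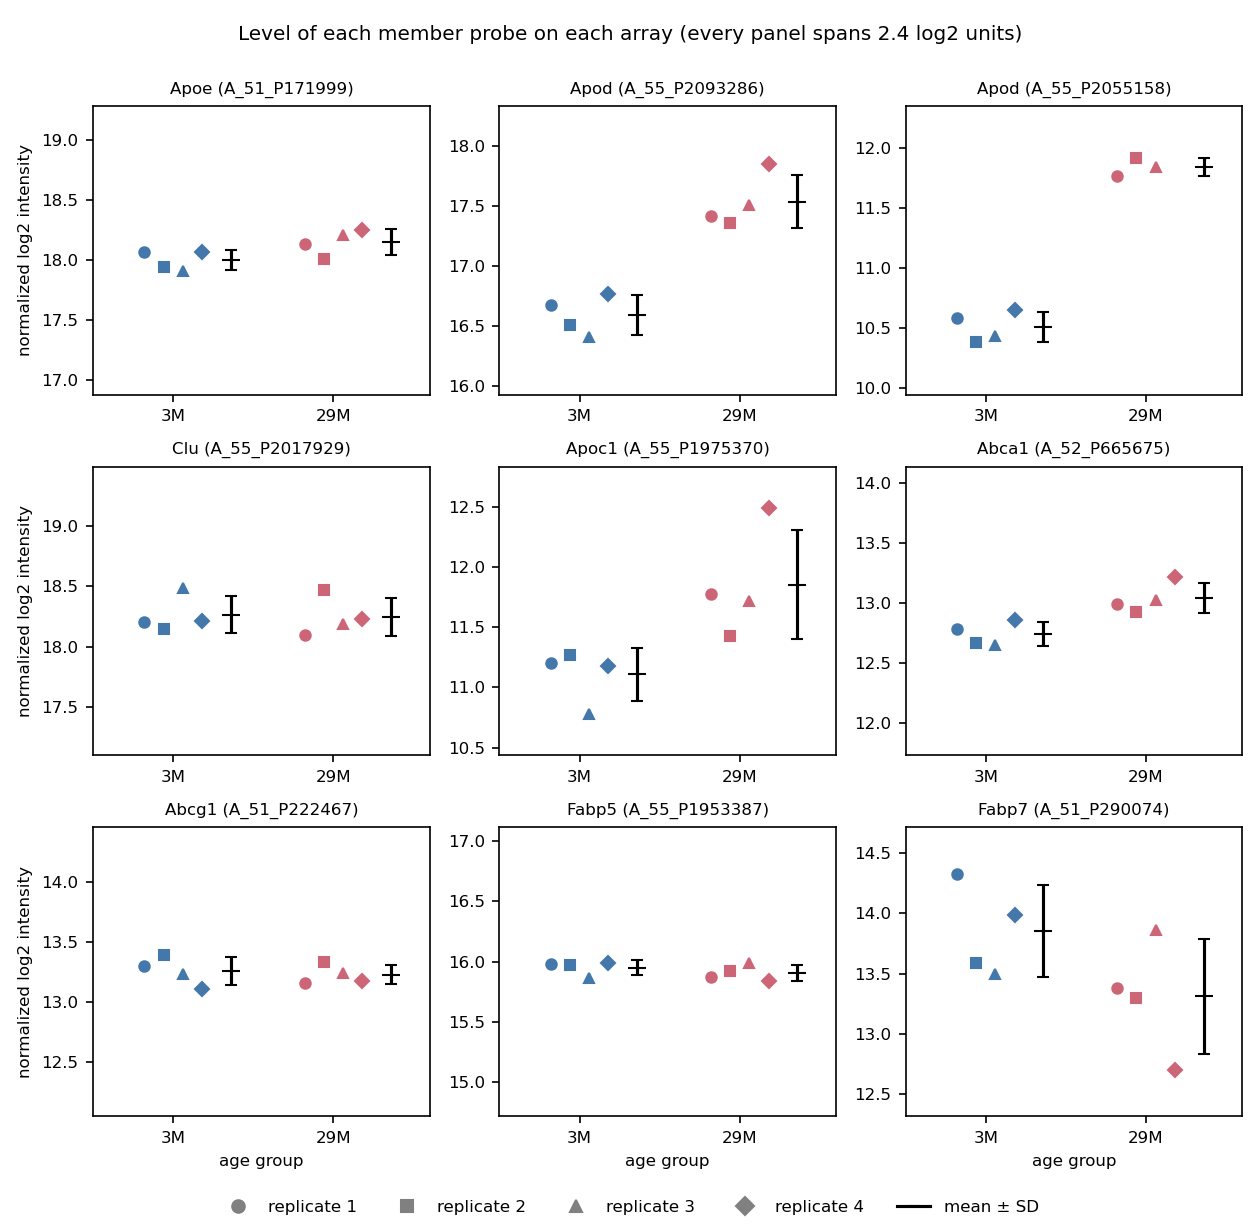
Normalized log2 intensity (vertical axis) of each of the 9 member probes on the 4 arrays of 3M (blue) and the 4 arrays of 29M (red), with the mean and SD of each group in black; every panel spans the same number of log2 units. Both Apod probes, Apoc1 and Abca1 have no overlap between the ages, and the second Apod probe has 3 values in 29M because 1 spot was an outlier.

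Promoters were taken from RefSeq (GRCm38.p6), from 250 bases before to 50 bases after the start of the transcript, and 4 of the 8 members had an entry. Of these 4, the 3 with the larger changes between the ages are shown, so that their upstream regions can be read beside their levels. The strands are minus for Apod at chr16:31314759-31315058 and Abca1 at chr4:53159846-53160145, and plus for Fabp7 at chr10:57784673-57784972. Capitals mark matches, on either strand, to 7 motifs described after the sequences.
Apod: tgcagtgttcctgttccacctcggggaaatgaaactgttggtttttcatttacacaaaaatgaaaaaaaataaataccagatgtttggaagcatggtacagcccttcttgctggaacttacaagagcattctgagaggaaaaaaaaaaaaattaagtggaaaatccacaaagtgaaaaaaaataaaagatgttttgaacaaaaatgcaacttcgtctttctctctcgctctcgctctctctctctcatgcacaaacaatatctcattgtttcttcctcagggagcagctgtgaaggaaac
Abca1: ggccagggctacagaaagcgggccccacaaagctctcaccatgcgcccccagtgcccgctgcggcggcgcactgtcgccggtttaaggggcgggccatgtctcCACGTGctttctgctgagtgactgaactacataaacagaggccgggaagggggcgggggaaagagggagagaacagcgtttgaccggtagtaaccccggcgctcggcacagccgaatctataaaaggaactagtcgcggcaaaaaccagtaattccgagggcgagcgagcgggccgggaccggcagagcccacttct
Fabp7: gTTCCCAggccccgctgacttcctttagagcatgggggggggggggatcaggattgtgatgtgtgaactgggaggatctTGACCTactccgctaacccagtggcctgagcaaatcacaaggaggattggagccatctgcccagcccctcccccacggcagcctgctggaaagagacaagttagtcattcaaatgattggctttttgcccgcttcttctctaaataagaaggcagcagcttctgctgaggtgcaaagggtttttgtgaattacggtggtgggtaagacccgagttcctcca

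The motifs searched were a half-site of LXR and other nuclear receptors (AGGTCA, in 16.3% of 32851 promoters of the same length), SREBP (TCACNCCAC, 1.24%), an E-box (CACGTG, 7.15%), STAT (TTCNNNGAA, 8.3%), AP-1 (TGANTCA, 7.81%), and RBPJ (TGGGAA, 25.6%). The letters AGATAA of a GATA site, the last of the 7, were in 11.2%. These letters were in the Apod window 0 times. The Abca1 window held 1 E-box, which begins at position -147 from the transcript start. The Fabp7 window held 2 matches, the RBPJ letters and the nuclear receptor half-site, both on the opposite strand. Apoe had 3 annotated promoters, of which 1 held the RBPJ letters. A match is a run of letters and was not tied to the levels that follow.

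Among the secreted apolipoproteins, Apod changed most. Apolipoprotein D is a lipocalin that binds arachidonic acid and other small lipids, is made by glia and is known to protect membranes from oxidised lipids. On its brighter probe (A_55_P2093286) the levels were 16.68, 16.51, 16.41 and 16.77 in replicates 1 to 4 of 3M, and 17.42, 17.36, 17.51 and 17.85 in replicates 1 to 4 of 29M. The lowest aged array was thus well above the highest young one. The means were 16.59 ± 0.16 (SD, n = 4) and 17.53 ± 0.22 (SD, n = 4). Apod rose 1.92-fold, with a 95% interval of 1.57 to 2.34. On the log2 scale this was 0.94 (SE 0.13, limma adjusted p 0.0106). This change was larger than that of 99.4% of all genes.

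The second Apod probe (A_55_P2055158) was read at 10.58, 10.38, 10.43 and 10.65 in 3M and at 11.76, 11.91 and 11.84 in replicates 1 to 3 of 29M. Replicate 4 of 29M had an outlier spot there and was left out of the fit. The rise on this probe was 1.33 (SE 0.10, limma adjusted p 0.00194), or 2.51-fold with a 95% interval of 2.15 to 2.94. Both probes were called with slide as a block, at 0.89 and 1.33 with limma adjusted p of 0.0358 and 0.0165. Before normalization the processed signal of the brighter probe lay between 96200 and 112600 in young mice and between 188200 and 231100 in aged mice.

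Apoe encodes the main lipid carrier of the brain, made by astrocytes and by activated microglia. Its probe was spotted 10 times per array, and the averages were 18.07, 17.94, 17.91 and 18.07 in 3M and 18.13, 18.01, 18.21 and 18.25 in 29M. Replicate 2 of 29M lay within the young range and the other aged arrays lay above it. The means were 18.00 ± 0.08 (SD, n = 4) and 18.15 ± 0.11 (SD, n = 4). The log2 change of 0.15 (SE 0.09) was not called (limma adjusted p 0.408), and its 95% interval ran from -0.04 to 0.35. The SD among the spots of 1 array was 0.04 to 0.15, and each of the 9 spot positions with usable values in both groups gave a positive difference, from 0.13 to 0.26. These positions share the same samples and are not replicates of age.

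Apoc1 encodes a small apolipoprotein that lies beside Apoe in the genome and inhibits lipoprotein uptake. Its levels were 11.20, 11.27, 10.78 and 11.18 in 3M and 11.78, 11.43, 11.72 and 12.49 in 29M. All aged arrays were above all young ones, replicate 2 narrowly and replicate 4 by the widest margin. The log2 change was 0.75 (SE 0.21), a 1.68-fold difference with a 95% interval of 0.27 to 1.22 on the log2 scale, and was past the fold threshold but not past the adjusted p (limma adjusted p 0.126). Without replicate 4 of 29M the change was 0.53 (limma adjusted p 0.167). With arrays weighted by their quality Apoc1 was called (0.58, limma adjusted p 0.0927).

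Clusterin (Clu, also called apolipoprotein J) is a secreted chaperone and lipid carrier of astrocytes and of choroid plexus and ependyma. Its levels were 18.20, 18.15, 18.49 and 18.21 in 3M and 18.10, 18.47, 18.19 and 18.23 in 29M. One array in each group stood high, replicate 3 of 3M and replicate 2 of 29M, and the groups overlapped fully. The difference of -0.01 on the log2 scale (SE 0.11, limma adjusted p 0.966) had a 95% interval of -0.26 to 0.23, and its sign depended on the processing. In these same high arrays the choroid plexus markers were lowest within their group, at a mean centred log2 intensity of -0.82 and -0.25. The part of tissue composition in the level of Clu was not tested.

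The membrane exporters differed from each other in their values. ABCA1 hands cholesterol and phospholipid to lipid-poor apolipoproteins. Abca1 was read at 12.79, 12.67, 12.65 and 12.86 in 3M and at 12.99, 12.93, 13.03 and 13.22 in 29M. Every aged array was above the highest young array, with a small gap. The log2 change was 0.30 (SE 0.09) with a 95% interval of 0.09 to 0.50, a 1.23-fold difference, which passed neither the adjusted p (limma adjusted p 0.155) nor the fold threshold. ABCG1 adds further sterol to particles that already carry lipid. Abcg1 was read at 13.30, 13.39, 13.23 and 13.11 in 3M and at 13.16, 13.33, 13.24 and 13.17 in 29M, and all aged arrays lay within the young range. Its change was -0.03 (SE 0.09, limma adjusted p 0.896) with a 95% interval of -0.23 to 0.17, and the difference between Abca1 and Abcg1 in their changes was not tested.

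Of the fatty acid binding proteins, Fabp7 (brain lipid binding protein) marks radial glia, neural stem cells of the dentate gyrus and astrocytes. Its levels were 14.33, 13.59, 13.50 and 13.99 in 3M and 13.38, 13.30, 13.86 and 12.70 in 29M. Aged arrays were lower except for replicate 3, which lay within the young range, and the SD in each group was the largest among the members. The means were 13.85 ± 0.38 (SD, n = 4) and 13.31 ± 0.48 (SD, n = 4). The log2 change of -0.54 (SE 0.25) had a 95% interval of -1.11 to 0.03 and was not called (limma adjusted p 0.319). It was -0.38 when replicate 1 of 3M, the highest array, was left out, and -0.34 without replicate 4 of 29M, the lowest.

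Fabp5, expressed in neurons, glia and endothelium, was read at 15.98, 15.97, 15.86 and 15.99 in 3M and at 15.87, 15.92, 15.99 and 15.84 in 29M. The SD in each group was the smallest among the members, and the groups overlapped. The difference of -0.04 on the log2 scale (SE 0.08, limma adjusted p 0.823) had a 95% interval of -0.21 to 0.13. Copies of Fabp5 that are annotated elsewhere in the mouse genome could share its signal.

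**Figure D2:**
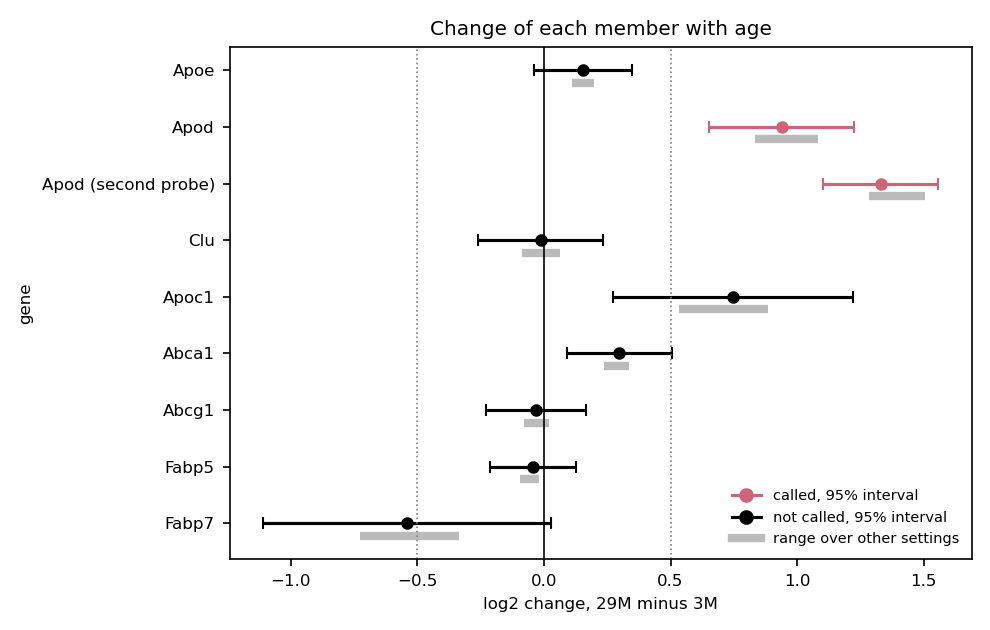
Log2 change from 3M to 29M (horizontal axis) for each member probe, with its 95% interval (line) and the range over the other processing settings (grey bar below); dotted lines mark the fold threshold on either side. Only the Apod probes (red) lie past the threshold with their whole interval, while the intervals of Clu, Abcg1 and Fabp5 lie around 0.

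Since the slides held both ages, the differences were also taken within each slide. Apod was higher in 29M by 0.99, 0.84 and 0.83 on slides 1, 2 and 3, and its second probe by 1.26, 1.54 and 1.22. Apoe was 0.16, 0.07 and 0.14 higher, and Abca1 0.33, 0.27 and 0.23. Apoc1 was 0.90 and 0.80 higher on slides 1 and 3 but 0.16 on slide 2. Fabp7 was -1.05 on slide 1 against -0.29 and -0.36 on the other slides. Clu was the only member whose sign turned, with 0.01, 0.32 and -0.25, and 7 of the 8 members kept 1 sign on all slides. Slide 2 held 1 array of each age, so its differences have no replicate. Slide 1 held 1 young array, replicate 1, and slide 3 held 1 aged array, replicate 1. Each difference within a slide thus rests on 1 array of at least 1 age.

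**Figure D3:**
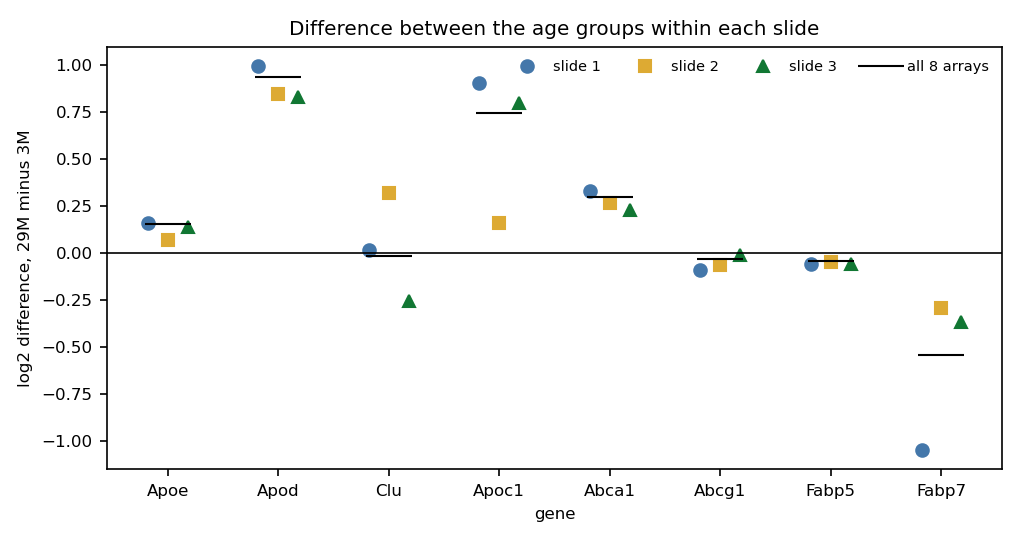
Difference in normalized log2 intensity between 29M and 3M (vertical axis) within each of the 3 slides for each member on its brightest probe (points), with the change over all 8 arrays as a black line. Apod lies between 0.83 and 0.99 on all slides, whereas Apoc1 and Fabp7 vary between slides and Clu changes sign.

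Members also varied together among arrays of the same age. In the aged group, replicate 4 was the highest and replicate 2 the lowest array for each of Apoe, Apod, Apoc1 and Abca1. In the young group, replicate 3 was the lowest array for the same 4 genes on their brightest probes, and also for Fabp5 and Fabp7. Replicate 4 of 29M was in turn the lowest aged array for Fabp5 and Fabp7. On the second Apod probe, where replicate 4 of 29M gave no value, replicate 2 of 29M was the highest aged array.

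The genes whose pattern over the 8 arrays was most like that of a member were searched among 15913 named genes, with Pearson's r as the measure and no test. For Apod they were Tmem82 (r 0.99), Csta2 (0.99) and Lpin1 (0.98), of which Lpin1 encodes a phosphatidate phosphatase of triglyceride synthesis. For Abca1 they were Olfml1, Skor1 and Rftn1 (0.98 to 0.99), and for Apoc1 Ccdc144b, Ccdc122 and 2310009B15Rik (0.98 to 0.99). For Apoe they were Rasgrf1, Spty2d1 and Nsmce2 (0.97 to 0.98), and for Fabp7 Tmeff2, Uhrf2 and Tmem107 (0.97 to 0.98). Clu was nearest to Ift172, Ripor1 and Pbld1 (0.96 to 0.98), Abcg1 to Nelfa, Pkp2 and Trmt10c (0.90 to 0.94), and Fabp5 to Lpar3, Apoo and Tdp1 (0.95 to 0.96). With 8 arrays and this many genes, high values of r are found for any pattern.

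The rest of the pathway was examined with 8 lists, of lipid genes and of neighbours of Apoe and Apoc1 in the genome. The counts that follow include these neighbours. Of 142 listed genes other than the members 140 were on the array, 5 were called higher (3.57%, beside 1.84% of all genes) and 0 were called lower. On the brightest probe of each gene, limma's test had 19 of them higher and 5 lower at an unadjusted p under 0.05, which is 17.1% of the listed genes and 17.1% over all genes. Their median log2 change was 0.06. The called genes described here were Trem2, Srebf2, Cyp27a1 and Bcl3, and of these Bcl3 encodes a regulator of NF-kB and was listed only as a neighbour of Apoe and Apoc1 in the genome.

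Among 21 lipoprotein receptors and their partners 2 were called higher, with a list median of 0.07. Trem2, a microglial receptor that binds lipids and apolipoproteins, went from 13.25 ± 0.18 to 13.90 ± 0.21 (SD, n = 4 each), a rise of 0.65 (SE 0.13, limma adjusted p 0.0493). Its groups were separate, with differences of 0.49, 0.66 and 0.68 on slides 1, 2 and 3, and its call was lost with slide as a block (limma adjusted p 0.114) and in 6 of 21 alternative settings in all. Sorl1, the sorting receptor of neurons, named after its values were seen, had a change of -0.43 (SE 0.11, limma adjusted p 0.0920), which is under the fold threshold. The uptake receptor Lrp1, also named after its values were seen, had a change of 0.07 (SE 0.08, limma adjusted p 0.704).

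Of 16 regulators around LXR and its partner RXR 1 was called higher, with a list median of 0.05. Srebf2, the factor that switches on cholesterol synthesis, had a change of 0.72 (SE 0.17, limma adjusted p 0.0835), and its other probe of 0.59 (limma adjusted p 0.0442). Its call was lost in 5 of 21 settings, among them the scaling to the 75th percentile. The LXR genes themselves, named here for their role, had changes of -0.07 (Nr1h3, SE 0.10, limma adjusted p 0.760) and 0.14 (Nr1h2, SE 0.09, limma adjusted p 0.452). Of the 20 enzymes of cholesterol synthesis limma's test called 0 (2 were higher at an unadjusted p under 0.05 on their brightest probe), and 15 had a positive change, with a median of 0.09; the largest was Hsd17b7 at 0.34 (limma adjusted p 0.518). Of 18 genes of cholesterol turnover, trafficking and storage 1 was called higher, with a median of 0.02. This was Cyp27a1, the enzyme that makes 27-hydroxycholesterol, at 0.57 (SE 0.12, limma adjusted p 0.0540), with 0.57, 0.69 and 0.69 on slides 1, 2 and 3. This call was lost in 8 of 21 settings, among them both other normalizations that do not use variance stabilisation. Plin4, a lipid droplet coat protein named after its values were seen, was 1.30 higher with separate groups but was not called (SE 0.40, limma adjusted p 0.155).

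In 3 further lists limma's test called 0 genes. At an unadjusted p under 0.05 on the brightest probe, 2 genes of the apolipoprotein list and 2 fatty acid binding or carrier proteins were higher. At the same level 1 exporter or enzyme was lower. The 2 of the apolipoprotein list, named after their values were seen, were Apobr (0.33), a receptor, and Apoc4 (0.27). The Apoc4 probe was not well above background on all arrays of either age. Of 17 other apolipoproteins and related genes the median change was 0.06. The largest change was that of Apoa4, at -0.50 (limma adjusted p 0.539), with 0.27 on slide 1 against -1.91 and -0.38 on slides 2 and 3. Of 17 other lipid exporters and lipoprotein enzymes the median was 0.02 and the largest was Abca5, at 0.49 (limma adjusted p 0.687). On that probe the SD in 3M was 1.24, and the differences were 2.02, 0.09 and 0.15 on slides 1, 2 and 3. The dimmer Abca5 probe was at 0.36 with separate groups (limma unadjusted p 0.0118, adjusted p 0.165). Of 21 other fatty acid binding and retinoid carrier proteins the median was 0.06 and the largest was Lcn2, at 0.56 (limma adjusted p 0.451). Among the 11 neighbours of Apoe and Apoc1 on the array the median was 0.09, and Bcl3 was called at 1.81 (SE 0.31, limma adjusted p 0.0273), with 0.66 on slide 1 against 2.61 and 2.25 on the other slides.

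**Figure D4:**
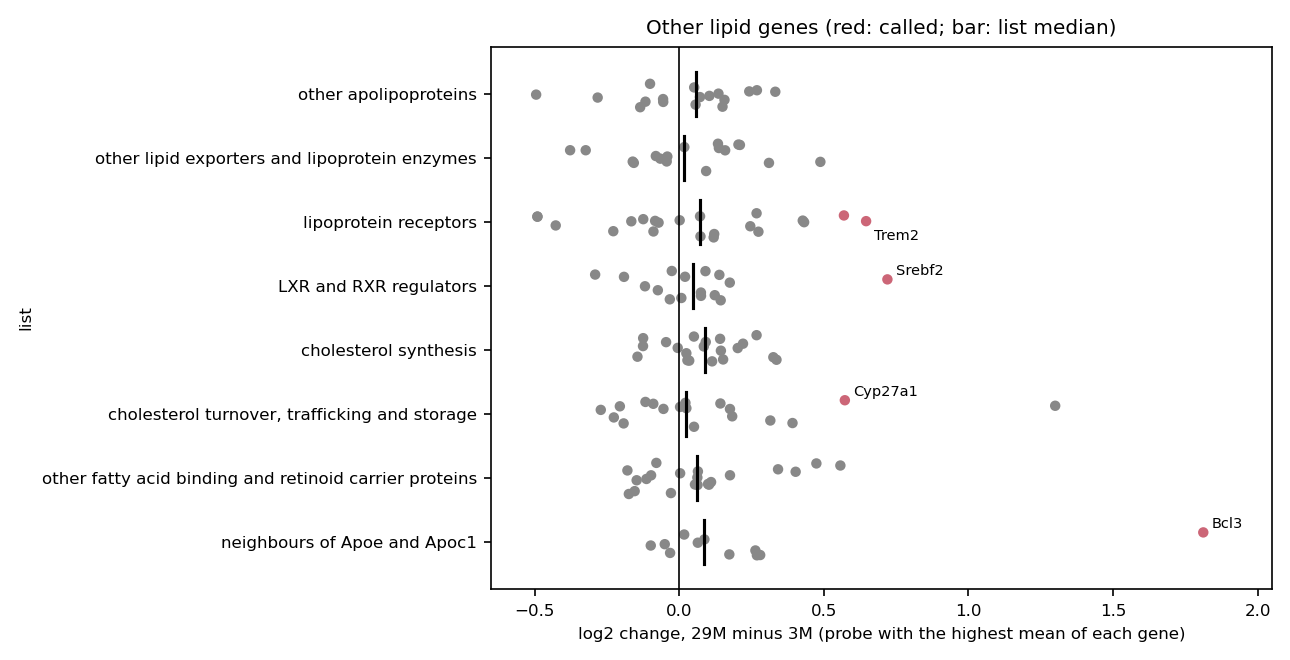
Log2 change from 3M to 29M (horizontal axis) of each gene in the 8 lists of other lipid genes and genomic neighbours, with called genes in red, 4 of them named, and the list median as a black bar. List medians lie between 0.02 and 0.09, and the 5 called genes are spread over 4 lists.

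Most members are made by particular cell types, so marker lists were read beside them. Of 18 microglia markers 4 were called higher in aged mice (C1qa, C1qb, Trem2 and Tyrobp) and 0 lower, with a median log2 change of 0.35. Markers of disease-associated microglia, a state in which these cells are known to express Apoe, had 8 of 15 called higher (Cst7, Itgax, Spp1, Gpnmb, Lgals3, Tyrobp, Trem2 and Csf1), 0 called lower and a median of 0.61. At an unadjusted p under 0.05 on the brightest probe, 11 of them were higher and 1 was lower. The lower one was the lipoprotein lipase gene Lpl, named after its values were seen. It was at -0.38 (limma adjusted p 0.263) and at -0.06 on its dimmer probe. With slide as a block Spp1, Lgals3 and Trem2 no longer passed the adjusted p (0.153, 0.178 and 0.114 in limma). The mean centred level of the list ran from -0.57 to -0.31 in 3M and from 0.14 to 0.47 in 29M. Replicate 4 of 29M, the highest aged array for Apoe, Apod, Apoc1 and Abca1, was the lowest aged array in both microglial lists, at -0.03 and 0.14. Within the aged group the 4 members and the microglial lists were not highest in the same array. In the young group replicate 3 was the lowest array for the 4 members, on their brightest probes, and for both microglial lists, at -0.27 and -0.57. The part of microglia in the values of these members was not tested.

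Of 15 astrocyte markers 1 was called higher, Gfap at 0.71 (SE 0.12, limma adjusted p 0.0235), and 0 were called lower. At an unadjusted p under 0.05 on the brightest probe, 2 were higher (Gfap and S100b, the latter at 0.33). At the same level 2 were lower, Ntsr2 at -0.24 and Slc1a2 at -0.22. S100b, Ntsr2 and Slc1a2 were named after their values were seen. The list median was -0.01. The mean centred level of the list ran from -0.12 to 0.06 in 3M and from -0.03 to 0.09 in 29M. Oligodendrocyte markers had 1 of 14 called higher (Ermn, on 1 probe at 0.76, while its brighter probe was at -0.24 and not called), a median of 0.16 and levels of -0.24 to 0.16 in 3M and 0.02 to 0.15 in 29M. At an unadjusted p under 0.05 on the brightest probe, 3 of these 14 were higher and 0 lower. Meningeal and fibroblast markers, from cells that can express Apod, had 0 of 14 called (4 higher at an unadjusted p under 0.05 on their brightest probe), a median of 0.26 and levels of -0.17 to 0.03 in 3M and -0.39 to 0.51 in 29M. The lowest of these levels was again in replicate 4 of 29M, the array in which Apod was highest on its brighter probe. Oligodendrocyte levels in 3M were lowest in replicate 3 (-0.24) and highest in replicate 4 (0.16), as was Apod on that probe. In 29M the highest oligodendrocyte level was in replicate 2 (0.15), where Apod on that probe was lowest. The part of these cell types in the level of Apod was not tested.

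Beside Fabp7, 3 of 16 neural progenitor and neuroblast markers were called lower (Igfbpl1, Mki67 and, on its dimmer probe, Sox11) and 0 higher, with a median log2 change of -0.38. The groups of Igfbpl1 overlapped, and its call was lost with slide as a block (limma adjusted p 0.142). The level of the list ran from 0.02 to 0.40 in 3M and from -0.23 to -0.09 in 29M, without overlap. Choroid plexus markers had 0 of 13 called and a median of 0.01, with levels of -0.82 to 0.45 in 3M and -0.25 to 0.19 in 29M. Ependymal markers had 0 of 12 called and a median of -0.09, with levels of -0.84 to 0.51 in 3M and -0.13 to 0.08 in 29M. Endothelial and pericyte markers had 0 called, with medians of 0.09 and -0.02, and 2 endothelial markers were higher at an unadjusted p under 0.05 on their brightest probe. In the choroid plexus, ependymal, pericyte and neuron lists limma's test gave 0 genes at that level on the brightest probe, while dimmer probes of the neuron genes Camk2a (-0.37) and Nefh (0.30), named after their values were seen, passed it. Of 10 oligodendrocyte precursor markers Gpr17 was called lower, a call lost with slide as a block (limma adjusted p 0.124), and of 13 blood markers Cd3d and Cd8a were called higher. The part of cell composition in the values of the members was not tested.

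**Figure D5:**
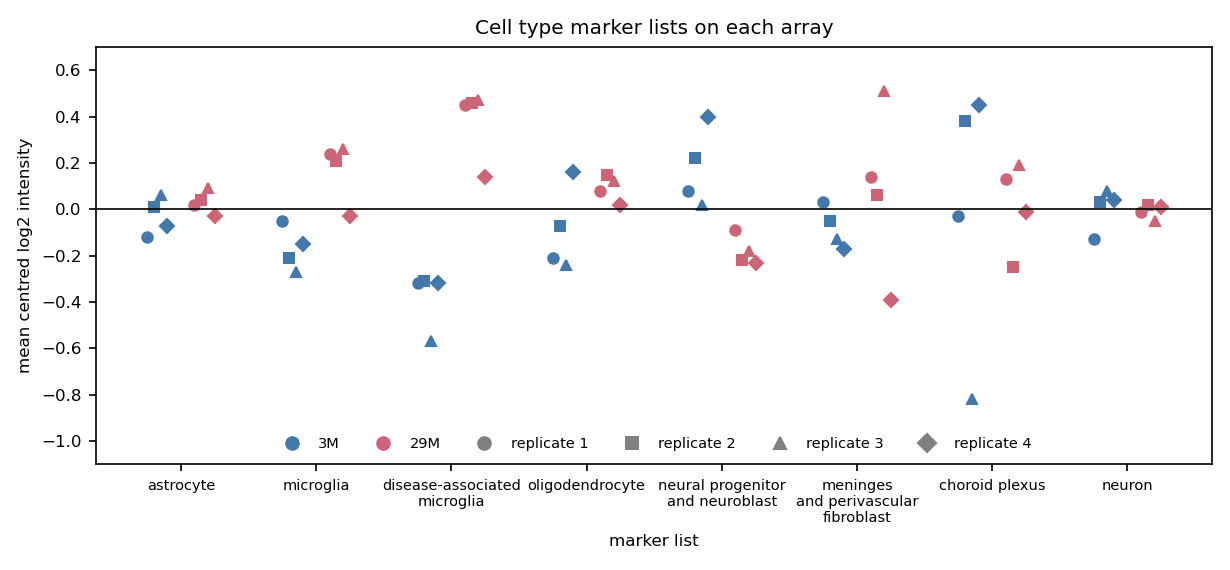
Mean centred log2 intensity (vertical axis) of 8 cell type marker lists on each array, with 3M in blue and 29M in red and a symbol for each replicate. Disease-associated microglia and neural progenitor lists separate the ages in opposite directions, and replicate 3 of 3M lies at -0.82 for choroid plexus.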

How the data were processed

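Hippocampal RNA of 4 samples at 3 months and 4 at 29 months was hybridised to Agilent 1-colour arrays, and groups came from the sample titles. No source used here says that the samples of a group were separate animals, so p-values measure the spread between these samples. The authors deposited linear, unnormalized intensities of each array, read, per the file headers, with Feature Extraction 10.7.3.1, whereas the study's methods name another version and design; the headers were followed. The mean spot intensity was not in the files used here and the median took its place. A deposited series table of intensities equalled the local background in all 8 columns (tolerance 0.001), 7 of them under another sample's name, with column medians of 26.7 to 34.8 and no derivable scale, centring or direction, and was not used.

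Following the study's methods, variance stabilising normalization (own implementation, least trimmed squares quantile 0.9, 7 iterations, checked on simulated data), limma 3.58.1 in R 4.3.3 with eBayes, Benjamini-Hochberg adjustment over 39408 tested probes, and thresholds of adjusted p 0.1 and log2 change 0.5 (1.414-fold) were used. Outlier spots (127 to 190 per array) were dropped, replicate spots averaged, and 3 usable arrays required per group. Dim probes are understated on this scale. Accessions were matched to RefSeq symbols of GRCm38.p6 (66.1% of probes). A gene was called by any probe, and the probe with the highest mean gives its printed value. A list level is the mean over genes of log2 values centred on the gene's mean over the 8 arrays.

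Named genes were all members, the called genes of each list or, where none was called, the one with the largest change, and the 3 genes most like each member; others are marked as named after their values were seen, and 1 called gene is counted but not reported here. Members, lists and tests were chosen with earlier results of these data known. The alternatives changed normalization, outlier and brightness filters, blocks for slide or replicate number, prior, array weights, thresholds and probe averaging, and left out each array in turn. Genes without a probe (Apoc2, Apol8, Clec7a, Hbb-b1 and Ly6g) were left out.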

Additional observations from a re-analysis of the deposited data

Results flagged for a closer look

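Of 59 groups of 4 arrays, for members and for list levels, 4 had 1 array set apart from the other arrays of its group by a gap that made up most of the group's range, where chance gives about 2.95 (1 in 20). Fabp5 in replicate 3 of 3M was at 15.86 against 15.97 to 15.99 on the other young arrays (gap 0.891 of the range). The level of the lipoprotein receptor list in replicate 4 of 29M was -0.06 against 0.05 to 0.06 (gap 0.936). The level of the disease-associated microglia list was -0.57 in replicate 3 of 3M against -0.32 to -0.31 (gap 0.954), and 0.14 in replicate 4 of 29M against 0.45 to 0.47 (gap 0.948). The 29M values of the second Apod probe were not examined, since 1 was left out as an outlier.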

How the results depend on the processing

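Of 21 alternative settings, Apod kept its call in 21, with log2 changes from 0.83 to 1.08 and limma adjusted p from 0.00325 to 0.0457. The number of members called higher was 1 in each setting except with array weights, where Apoc1 made it 2, and 0 were called lower in any. Abca1 (0.24 to 0.34), Apoe (0.11 to 0.20), Apoc1 (0.53 to 0.89), Fabp5 and Fabp7 (-0.73 to -0.34) kept their direction throughout. Clu turned positive with normexp and quantile normalization (0.0345), a fixed block for slide (7e-04) and array weights (0.0316), and with 1 array left out it ran from -0.0876 to 0.0617, positive without replicate 3 of 3M, replicate 1 of 29M or replicate 3 of 29M. Abcg1 turned positive with the 75th percentile scaling (0.0029), with variance stabilisation of processed signals (0.0179) and without replicate 2 of 3M (0.0135), and with 1 array left out it ran from -0.0799 to 0.0135.

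The count of other listed genes called higher, 5, became 3 with a fixed block for slide and 1 with the replicate block. It became 9 with array weights and 3 at an adjusted p under 0.05. With 1 array left out the count ran from 1 (without replicate 2 of 3M, replicate 1 of 29M or replicate 2 of 29M) to 6, and it was 3 without replicate 3 of 3M. Bcl3, listed only as a neighbour in the genome, kept its call in each of the 21 settings. It was the only gene called where the count was 1, so no lipid gene of the lists was called there. The count called lower, 0, became 1 with normexp and quantile normalization, with variance stabilisation of processed signals and with no fold threshold; with 1 array left out it ran from 0 to 1 (without replicate 1 of 3M).

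The deviations of same-numbered arrays correlated at -0.32, 0.29, -0.30 and 0.11 across probes, and 1 of 4 numbers matched itself best. No pairing by replicate number was thus seen, but these 4 values cannot exclude a weak one. Both arrays of replicate 2 were also on slide 2. With the replicate block Apod was called at 0.94 (limma adjusted p 0.0381), and over all probes 266 were called higher and 145 lower, in place of 491 and 319. These totals were 842 and 662 with array weights. Leaving out 1 array gave 825 and 639 (replicate 1 of 3M), 267 and 135 (replicate 2 of 3M), 314 and 221 (replicate 3 of 3M), 265 and 138 (replicate 1 of 29M), 283 and 166 (replicate 2 of 29M), and 388 and 156 (replicate 4 of 29M). Without a fold threshold they were 764 and 627, at an adjusted p under 0.05 they were 308 and 179. Averaged over the probes of a gene, 292 genes were called higher and 127 lower, in place of 364 and 176 genes. With 4 arrays per group, the intervals of Apoe, Clu, Abcg1, Fabp5 and Fabp7 held 0. The causes of these shifts were not tested.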
